A study of Drosophila melanogaster with 8 samples.

Results

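The effect of an Hr39 mutation on RNA levels was compared between 2 organs of the female fruit fly (Drosophila melanogaster). All 8 arrays of the series enter it. They form 4 groups of 2 arrays each, named by their titles: spermathecae of Hr39(04443) mutant females, spermathecae of wild-type females, lower reproductive tract of Hr39(04443) females, and lower reproductive tract of wild-type females. All females were 4 days old and mated, and the tract was taken with the spermathecae removed. No strain is given for the wild type, so a difference between the genotypes may also hold differences in background, which cannot be told apart here. The arrays of a group are an original and a duplicate. Nothing says that they came from separate animals, so p-values measure the spread between these arrays, which may be technical. The quantity of interest is the interaction difference. It is the log2 effect of the mutation in the spermathecae minus the log2 effect of the mutation in the lower tract. A positive value means that the mutant RNA level, relative to wild type, was higher in the spermathecae than in the lower tract, whether through a rise in the one or a fall in the other. Values given per array are linear MAS5 signals, and effects and differences are on the log2 scale.

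Hr39 encodes an orphan nuclear receptor, a DNA-binding transcription factor of the family that holds mammalian SF-1 and the fly paralog ftz-f1. In Drosophila it is needed for the glands of the female tract to form and secrete. The spermathecae are capsules of cuticle surrounded by secretory cells, and they store sperm after mating. The rest of the lower tract holds the oviduct and uterus, with muscle, epithelium, nerve endings and some attached fat. Both organs are mixtures, and in bulk RNA fewer cells of a type and less RNA per cell cannot be told apart.

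Of 18769 probe sets that are not controls, 10113 were kept because in 1 group or more both arrays gave a signal no lower than the median signal of that array. The deposited MAS5 signals were tested as log2(signal + 4) with limma over all 8 arrays, and calls were made at an adjusted p below 0.05. In all, 308 of the 10113 probe sets (3.05%) had a called interaction difference, 178 of them above 0 (1.76%) and 130 below 0 (1.29%). Before adjustment 1414 had p below 0.05. The median interaction difference was 0.04 over all probe sets tested, 2.07 over the 178 and -1.91 over the 130. For comparison, the same fit called 802 probe sets (7.93%) for the mutation in the spermathecae, 4.04% higher and 3.89% lower in the mutant. In the lower tract it called 587 (5.8%), 2.47% higher and 3.33% lower. All of these use the same arrays as the interaction.

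The count of 308 depended on which arrays were used. Without replicate 1 or replicate 2 of mutant spermathecae it was 171 in either case. For the mutant lower tract it was 116 when replicate 1 was left out and 139 when replicate 2 was, and for the wild-type lower tract 190 when replicate 1 was and 296 when replicate 2 was. Without replicate 1 of wild-type spermathecae it was 341, and without replicate 2 it was 440. Of the 308, 99 kept their call when any single array of the 8 was left out, 54 above 0 and 45 below 0. A pair of arrays stood apart. On wild-type lower tract replicate 1 the germline gene osk (oskar) read 555.6, against 20.8 on replicate 2, and the summed signal of the germline list was 10287 against 4335. On wild-type spermathecae replicate 1 the actin control had a 3' signal 7.09 times its 5' signal, a ratio that degraded RNA raises. It was 1.34 to 2.14 elsewhere. The Gapdh ratio was also highest on that array, at 5.87 against 2.46 to 4.05 elsewhere. The eIF4A ratio was not, at 3.17 against 2.75 to 3.35 on the other arrays. With both of these arrays left out, 306 probe sets were called, 227 of them among the 308. Of the 70 called genes named below by rule, 62 kept their call without these arrays, and Ppn, NimC1, Sr-CI, CG13931, Idgf5, Duox, Est-Q and beat-VII did not, with an adjusted p of 0.0512 to 0.172. The organs matched their labels. Summed signal of 11 spermathecal protease probe sets was 110288 to 147273 in mutant and 110136 to 151729 in wild-type spermathecae, but 3612 to 10917 in the mutant and 2582 to 5231 in the wild-type lower tract. Muscle genes summed to 137966 to 160572 in the mutant and 135773 to 150159 in the wild-type lower tract, and to 21457 to 22026 and 20447 to 20686 in mutant and wild-type spermathecae.

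The 308 probe sets fell into a few patterns when each was set beside the effects it is made of. Among the 178 above 0, 90 fell in the mutant lower tract without a called effect in the spermathecae, and 58 rose in the mutant spermathecae without a called effect in the lower tract. A further 13 rose in the spermathecae and fell in the lower tract, 8 rose in both, 2 fell in both, and 7 had no call in either organ alone. Among the 130 below 0, 73 fell in mutant spermathecae without a call in the lower tract, and 36 rose in the mutant lower tract without a call in the spermathecae. Another 6 fell in the spermathecae and rose in the lower tract, 7 fell in both, 4 rose in both, and 4 had no call in either. This sorts the members and is no further test, since the effects and the interaction share their arrays. The interaction is itself the test that a member's effects in the organs differ.

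**Figure D1:**
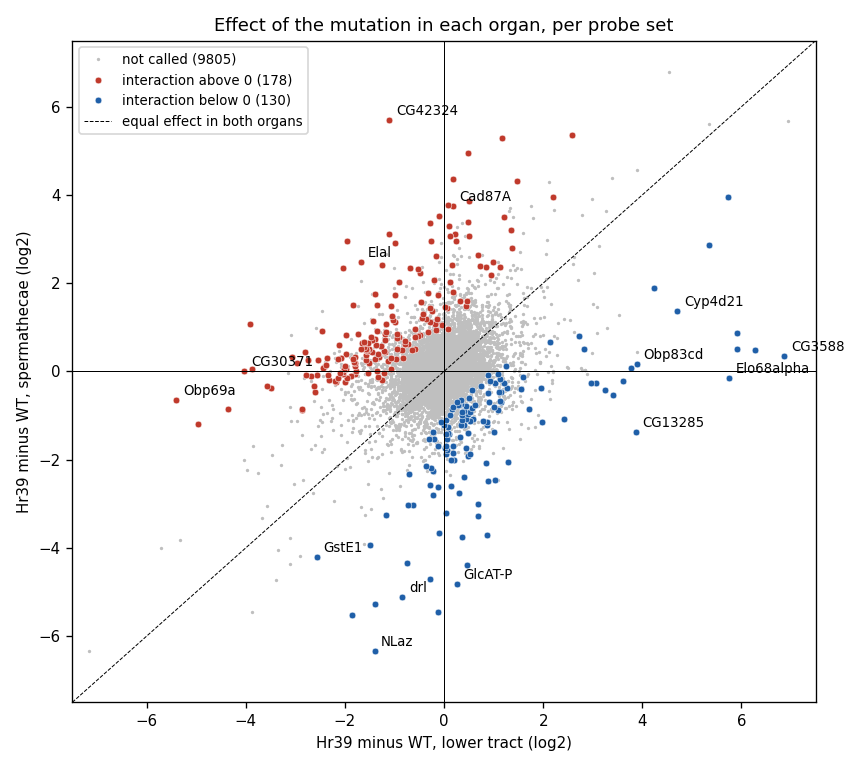
Effect of the mutation in the lower tract (x axis) and in the spermathecae (y axis) for each of 10113 probe sets, as log2 of Hr39 over wild type. Red points mark the 178 probe sets with a called interaction difference above 0 and blue points the 130 below 0; both lie away from the dashed line of equal effects, as in Obp69a (lower tract) and NLaz (spermathecae).

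Hr39 and its paralog did not pass the test of the interaction. The Hr39 probe set 1630002_s_at read 477 and 452 in mutant spermathecae, against 821 and 725 in wild-type spermathecae. In the lower tract it read 59.6 and 65.4 in the mutant, against 73.3 and 88.2 in wild type. On this probe set the mutant arrays lay below the wild-type arrays in both organs, and the interaction difference was -0.38 (SE 0.25, adjusted p = 0.566). On the other Hr39 probe sets it was 0.03 (1631402_s_at), -0.00 (1628556_s_at) and 0.52 (1632845_at), with adjusted p of 0.971, 0.999 and 0.788. The last of these was near background, and its difference was 2.96 with no pseudocount. For ftz-f1 the values were -0.02 and -0.26 (adjusted p = 0.992 and 0.902). The labels do not say where in the gene the mutation lies, so these probe sets check the labels only in part.

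Genes that fell in mutant spermathecae, and fell less or did not pass the test in the lower tract, included a lipocalin and enzymes that build and sulfate glycans. NLaz encodes a secreted lipocalin, a carrier of small hydrophobic molecules. It read 21.3 and 27.5 in mutant spermathecae, against 2196 and 2365 in wild-type spermathecae. In the lower tract it read 1275 and 1365 in the mutant, against 3253 and 3744 in wild type. NLaz was thus lower in the mutant in both organs with no overlap of the arrays, but far more so in the spermathecae, with an effect of -6.34 there and -1.40 in the lower tract. Its interaction difference of -4.94 (SE 0.23, adjusted p = 1.28e-05) had the smallest p among tested probe sets with 1 gene symbol. The other lipocalin genes did not pass. The interaction difference was -0.00 for GLaz (adjusted p = 0.999), and -0.48 (adjusted p = 0.692) and -0.72 (adjusted p = 0.65) on the 2 probe sets of Karl.

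Papss makes PAPS, the donor of sulfate groups for sulfation. Papss read 105 and 211 in mutant spermathecae, against 4225 and 3773 in wild-type spermathecae, and 118 and 126 in the mutant lower tract, against 141 and 157 in the wild-type lower tract. All 4 lower tract arrays and both mutant spermathecae arrays lay near one another, and wild-type spermathecae stood above them. GlcAT-P, a glucuronyltransferase of glycan chains, showed the same order with 41.7 and 52.1 in mutant spermathecae, against 1248 and 1626 in wild-type spermathecae. Its lower tract signals were 27.8 and 32.1 in the mutant, against 24.3 and 24.3 in wild type. The interaction differences were -4.43 (SE 0.38, adjusted p = 0.000348) for Papss and -5.08 (SE 0.33, adjusted p = 0.000139) for GlcAT-P. The sulfotransferase gene St4 read 2.12 and 0.898 in mutant spermathecae, against 60.7 and 74.6 in wild-type spermathecae, and 10.4 and 6.53 in the mutant lower tract, against 3.86 and 1.84 in the wild-type lower tract. Its interaction difference was -4.56 (SE 0.66, adjusted p = 0.00535), a size that rests on levels near background, at -7.23 with no pseudocount and -2.34 with a pseudocount of 20. C1GalTA, which adds galactose to O-linked glycans of mucins, moved the other way. It read 975 and 837 in mutant spermathecae, against 301 and 302 in wild-type spermathecae, and 106 and 129.8 in the mutant lower tract, against 163 and 162 in the wild-type lower tract, and differed by 2.03 (SE 0.24, adjusted p = 0.00189). Of 25 tested probe sets of glycan and sulfate transfer, 1 had a call above 0 and 2 below 0, and all 3 kept their call in each of the 8 omissions of an array. St4 is not in that list. Of all probe sets tested, 1.76% had a call above 0 and 1.29% below 0.

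Other genes fell in mutant spermathecae while the lower tract changed less. The receptor tyrosine kinase gene drl (derailed), a Wnt5 receptor, read 35.6 and 49.1 in mutant spermathecae, against 1895 and 1333 in wild-type spermathecae. In the lower tract drl read 72.8 and 78.8 in the mutant, against 137 and 140.5 in wild type, and its interaction difference was -4.28 (SE 0.32, adjusted p = 0.000172). Cpr62Bb, a cuticle protein gene, read 136 and 142 in mutant spermathecae, against 3631 and 2459 in wild-type spermathecae. Its lower tract signals were 128 and 210.3 in the mutant, against 101 and 138 in wild type, so that the mutant and wild-type tracts overlapped, and it differed by -4.84 (SE 0.38, adjusted p = 0.000182). Jhbp14, of a family named for juvenile hormone binding, fell to 564 and 618 in mutant spermathecae, against 4433 and 3600 in wild-type spermathecae. The tract had 3641 and 3109 in the mutant, against 2634 and 2827 in wild type, and the interaction difference was -3.05 (SE 0.22, adjusted p = 0.000166). CG10211, a predicted peroxidase, differed by -5.33 (SE 0.73, adjusted p = 0.00398), with 1.76 and 20 in mutant spermathecae, against 462 and 569.7 in wild-type spermathecae. In 2 detoxification genes both organs fell, and the spermathecae fell further. Cyp6a14, a cytochrome P450, had effects of -3.93 (spermathecae) and -1.50 (lower tract), an interaction difference of -2.43 (SE 0.24, adjusted p = 0.000603). GstE1, a glutathione S-transferase, had effects of -4.21 and -2.57 in the same organs and a difference of -1.64 (SE 0.23, adjusted p = 0.00453). Rnf11, of the RING finger family, was named after its values were seen. It had effects of -5.51 and -1.86 in the same organs and a difference of -3.66 (SE 0.35, adjusted p = 0.000544). Further down in size, the basement membrane gene Mp (Multiplexin, a collagen) differed by -1.60 (SE 0.25, adjusted p = 0.00738), Ppn (papilin) by -1.11 (adjusted p = 0.0269), the serpin gene Spn28Dc by -1.48 (adjusted p = 0.00727) and the protease gene ea (easter) by -1.22 (adjusted p = 0.0239). Mp lost its call without mutant lower tract replicate 1 (adjusted p = 0.0529) or mutant lower tract replicate 2 (adjusted p = 0.0502). Ppn lost its call without mutant lower tract replicate 1 or 2, mutant spermathecae replicate 1 or 2 or wild-type lower tract replicate 1, with an adjusted p of 0.0901 to 0.167, and also with no variance trend (adjusted p = 0.0817). Spn28Dc lost its call without mutant lower tract replicate 1 (adjusted p = 0.062). ea lost its call without mutant lower tract replicate 1 or 2, mutant spermathecae replicate 1 or 2 or wild-type lower tract replicate 2, with an adjusted p of 0.056 to 0.154, and also with no variance trend (adjusted p = 0.0758).

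**Figure D2:**
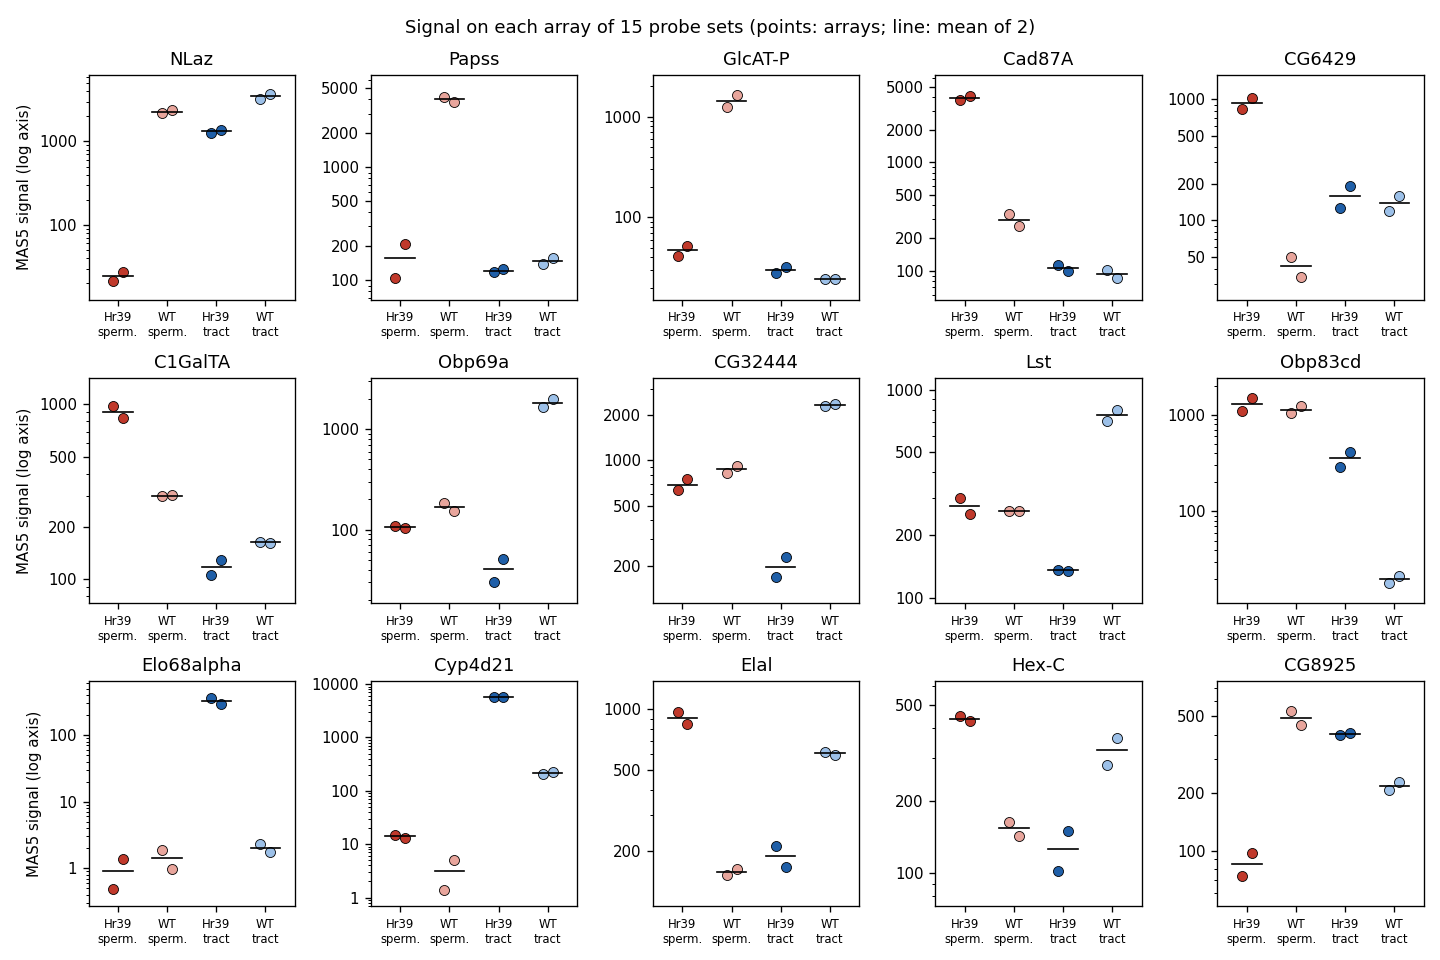
MAS5 signal (log axis, 1 scale per panel) on each array for 15 probe sets, in mutant (Hr39) and wild-type (WT) spermathecae and in the mutant and wild-type lower tract; points are arrays and lines are means of 2. NLaz, Papss and GlcAT-P fell in mutant spermathecae, Cad87A, CG6429 and C1GalTA rose there, Obp69a, CG32444 and Lst fell in the mutant lower tract, Obp83cd, Elo68alpha and Cyp4d21 rose in it, and Elal, Hex-C and CG8925 moved in opposite directions.

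Genes that rose in mutant spermathecae, with no called effect in the lower tract, included an adhesion gene, a cuticle gene and a lipid droplet gene. Cad87A encodes a cadherin, a cell adhesion protein. It read 3808 and 4099 in mutant spermathecae, against 331 and 256 in wild-type spermathecae, and 112 and 99.7 in the mutant lower tract, against 102 and 84.6 in the wild-type lower tract. The lower tract arrays overlapped, whereas the mutant spermathecae arrays stood far above all others, and the interaction difference was 3.57 (SE 0.26, adjusted p = 0.000165). A second Cad87A probe set, near background, gave 0.68 (adjusted p = 0.741). Cpr66Cb, a cuticle protein gene, read 833 and 814 in mutant spermathecae, against 64.3 and 90 in wild-type spermathecae, and 38.1 and 32.9 in the mutant lower tract, against 52.3 and 37.4 in the wild-type lower tract, a difference of 3.66 (SE 0.35, adjusted p = 0.000532). Cpr66Cb and Cpr62Bb thus moved in opposite directions in the same organ. Jabba, which anchors histones to lipid droplets, read 83.9 and 83.3 in mutant spermathecae, against 8.51 and 4.05 in wild-type spermathecae. Its tract signals were 34.2 and 43.3 in the mutant, against 111 and 69.2 in wild type, so the genotypes differed in opposite senses in the organs, with a called effect in the spermathecae. The Jabba interaction difference was 4.23 (SE 0.49, adjusted p = 0.0018), and its other probe set gave 3.35 (adjusted p = 0.0145). SmydA-9, of the SMYD family of methyltransferases, read 91.4 and 109 in mutant spermathecae, against 5.12 and 2.42 in wild-type spermathecae. In the tract it was bright in both genotypes, with 2779 and 2611 in the mutant, against 2614 and 2473 in wild type. Its difference was 3.68 (SE 0.28, adjusted p = 0.000172), and 4.74 with no pseudocount and 2.26 with a pseudocount of 20.

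CG6429 read 826 and 1030 in mutant spermathecae, against 49.9 and 34 in wild-type spermathecae, and 127 and 192 in the mutant lower tract, against 119 and 158 in the wild-type lower tract, a difference of 4.17 (SE 0.38, adjusted p = 0.000398). The largest difference above 0 was that of CG42324, with 901 and 1284 in mutant spermathecae, against 37.5 and 6.39 in wild-type spermathecae, and 15 and 2.6 in the mutant lower tract, against 26 and 15.2 in the wild-type lower tract. It differed by 6.80 (SE 0.92, adjusted p = 0.00398), and a second CG42324 probe set by 3.21 (adjusted p = 0.0212). In each group but mutant spermathecae, 1 or more arrays of the first probe set lay below the array median. Its difference was 7.79 with no pseudocount and 5.33 with a pseudocount of 20. CG18088 read 2093 and 2693 in mutant spermathecae, against 50.1 and 63.1 in wild-type spermathecae, and 12.3 and 3.01 in the mutant lower tract, against 0.604 and 0.842 in the wild-type lower tract. It differed by 4.12 (SE 0.55, adjusted p = 0.00386), but by 2.31 with no pseudocount, where it lost its call (adjusted p = 0.284). CG34279 differed by 4.46 (SE 0.67, adjusted p = 0.00653), with 135 and 270.2 in mutant spermathecae, against 2.02 and 2.68 in wild-type spermathecae. CG34279 lost its call with no pseudocount (adjusted p = 0.0855). The sugar receptor gene Gr64a differed by 3.90 (SE 0.80, adjusted p = 0.0315) and, like CG34279, was near background in all groups but mutant spermathecae; its value was 6.33 with no pseudocount and 1.96 with a pseudocount of 20. Gr64a lost its call without mutant lower tract replicate 1 or 2, mutant spermathecae replicate 1 or 2, wild-type lower tract replicate 2 or wild-type spermathecae replicate 2, with an adjusted p of 0.0518 to 0.121, and also with no filter or no pseudocount (adjusted p of 0.0556 to 0.0973). Muscle genes gave 2 of 61 probe sets above 0 (3.28%), against 1.76% of all probe sets tested. Mf (myofilin) on 1635372_a_at differed by 1.43 (SE 0.26, adjusted p = 0.0172) with a rise in both organs, but -0.66 (adjusted p = 0.224) on its other probe set, so the probe sets of this gene disagree. Strn-Mlck, a myosin light chain kinase of muscle, differed by 1.39 (SE 0.25, adjusted p = 0.0151) on 1634574_a_at and -0.08 (adjusted p = 0.964) on another. Mf lost its call without mutant lower tract replicate 2 or mutant spermathecae replicate 1 or 2, with an adjusted p of 0.0573 to 0.0948, and also with no variance trend (adjusted p = 0.0758). Strn-Mlck lost its call without mutant lower tract replicate 1 or 2 or mutant spermathecae replicate 1, with an adjusted p of 0.0522 to 0.0913, and also with no variance trend (adjusted p = 0.0663).

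The 90 probe sets that fell in the mutant lower tract without a called effect in the spermathecae included those of Obp69a, CG32444, Lst, Cyp6g1, Spn47C and Tps1. Obp69a, a secreted odorant-binding protein, read 29.9 and 51.4 in the mutant lower tract, against 1663 and 2017 in the wild-type lower tract. In the spermathecae it read 108 and 104 in the mutant, against 183 and 153 in wild type, a difference of 4.77 (SE 0.34, adjusted p = 0.000165). CG32444, a predicted aldose epimerase, read 167 and 227 in the mutant lower tract, against 2319 and 2381 in the wild-type lower tract, and 632 and 751 in mutant spermathecae, against 831 and 912 in wild-type spermathecae. It differed by 3.23 (SE 0.25, adjusted p = 0.000172). Lst encodes limostatin, a peptide hormone that lowers insulin secretion in flies. Lst read 136 and 134 in the mutant lower tract, against 708 and 801 in the wild-type lower tract, while the spermathecae overlapped with 301 and 254 in mutant spermathecae, against 262 and 261 in wild-type spermathecae, and the difference was 2.52 (SE 0.23, adjusted p = 0.000398). Cyp6g1, a cytochrome P450 known from insecticide resistance, differed by 2.28 (SE 0.29, adjusted p = 0.00257), with 106 and 132 in the mutant lower tract, against 431 and 334 in the wild-type lower tract. Its spermathecal signals were 177 and 202 in the mutant, against 118 and 122 in wild type. The serpin gene Spn47C differed by 2.27 (SE 0.33, adjusted p = 0.00577) and read 99.8 and 109.9 in the mutant lower tract, against 481 and 619.8 in the wild-type lower tract. Tps1, which makes trehalose, the blood sugar of flies, read 689 and 613 in the mutant lower tract, against 1939 and 1776 in the wild-type lower tract, and differed by 2.02 (SE 0.26, adjusted p = 0.00348). Tps1 was named after its values were seen.

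CG30371, a predicted serine protease, read 171 and 84.6 in the mutant lower tract, against 1976 and 2076 in the wild-type lower tract. In the spermathecae its signals were 13520 and 15949 in the mutant, against 16816 and 12813 in wild type, close to the brightest signals on those arrays. The interaction difference was 4.03 (SE 0.39, adjusted p = 0.00057). The summed spermathecal proteases overlapped between the genotypes in the tract, at 10917 and 3612 in the mutant, against 5231 and 2582 in wild type. The part of spermathecal RNA in the tract samples was not tested. The LIM domain gene esn (espinas) differed by 4.99 (SE 0.58, adjusted p = 0.0018) on 1632679_s_at, with 10.4 and 29.6 in the mutant lower tract, against 298 and 357 in the wild-type lower tract. Its other probe set gave 0.16 (adjusted p = 0.955). That probe set was near background on every array, at 4.41 to 24.7, so it says little about the first. CG13931 differed by 3.94 (SE 0.69, adjusted p = 0.0149) and was near background in every group but the wild-type lower tract; its value was 6.16 with no pseudocount and 2.14 with a pseudocount of 20. CG13931 lost its call without mutant lower tract replicate 1 or wild-type lower tract replicate 1 or 2, with an adjusted p of 0.0522 to 0.105, and also with no pseudocount (adjusted p = 0.1).

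Genes of fat and of lipid transport were among those above 0. Of 24 tested probe sets of fat body genes, 4 were called above 0 (16.7%) and 0 below, against 1.76% and 1.29% of all probe sets tested. Their median was 1.09, against 0.04 over all probe sets tested. Apoltp, a lipid transfer particle protein, read 103 and 98.5 in the mutant lower tract, against 547 and 495 in the wild-type lower tract. In the spermathecae Apoltp read 174 and 149 in the mutant, against 233 and 148 in wild type, a range within which the genotypes overlapped, and the difference was 2.12 (SE 0.32, adjusted p = 0.00644). The lipophorin gene apolpp, which encodes the main lipid carrier of the blood, read 1666 and 1952 in the mutant lower tract, against 4620 and 4841 in the wild-type lower tract, and 3672 and 2852 in mutant spermathecae, against 3557 and 1976 in wild-type spermathecae. Its difference was 1.68 (SE 0.36, adjusted p = 0.0353). Lsd-1, a perilipin on lipid droplets, had a called effect of -0.96 in the lower tract, and of 0.75 in the spermathecae, and differed by 1.70 (SE 0.27, adjusted p = 0.00838). FASN1, a fatty acid synthase, was named after its values were seen and differed by 1.13 (SE 0.25, adjusted p = 0.0419), with no call in either organ alone. apolpp lost its call without mutant lower tract replicate 1 or 2, mutant spermathecae replicate 1 or 2 or wild-type lower tract replicate 1 or 2, with an adjusted p of 0.0716 to 0.178, and also with no filter or no variance trend (adjusted p of 0.0703 to 0.114). Lsd-1 lost its call without mutant lower tract replicate 1 (adjusted p = 0.0623). Of the 4, Apoltp kept its call in each of the 8 omissions, and FASN1 in 2. The yolk protein genes Yp1, Yp2 and Yp3, which fat body and follicle cells express, had differences of 0.15, 0.84 and 0.26 and did not pass.

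Summed signal of the whole list of 29 fat body probe sets was 40242 to 41249 in the mutant lower tract and 54062 to 56437 in the wild-type lower tract. In spermathecae it was 49769 to 50598 in the mutant and 35204 to 62111 in wild type, where replicate 2 was the lower array. The yolk protein genes Yp1, Yp2 and Yp3 had the brightest signals in the list. In the lower tract Yp2 read 5636 and 6107 in the mutant, against 10974 and 10240 in wild type. The mean log2 signal of the list was 8.07 to 8.25 in the mutant lower tract and 8.51 to 8.53 in the wild-type lower tract. In the mutant effect in the lower tract alone, 1 of 24 tested probe sets rose and 7 fell, against 2.47% and 3.33% of all tested. The part of attached fat in these results was not tested. Genes of the Niemann-Pick families Npc1 and Npc2, which bind and move sterols, had 3 of 6 probe sets above 0 and 0 below, with a median of 1.15. Of all probe sets tested, 1.76% were called above 0 and 1.29% below 0. Npc2h read 197 and 213 in mutant spermathecae, against 103 and 80.3 in wild-type spermathecae, and 82.3 and 109.5 in the mutant lower tract, against 258 and 264 in the wild-type lower tract. It rose in one organ and fell in the other, and differed by 2.56 (SE 0.30, adjusted p = 0.00189). Npc2g fell in the lower tract (-1.79) and Npc2f rose in the spermathecae (1.09), with differences of 1.98 (SE 0.38, adjusted p = 0.0225) and 1.27 (SE 0.29, adjusted p = 0.0474). Npc2g lost its call without mutant lower tract replicate 1 or 2, mutant spermathecae replicate 1 or 2 or wild-type lower tract replicate 1 or 2, with an adjusted p of 0.0511 to 0.129, and also with no variance trend (adjusted p = 0.0825). Npc2f lost its call without mutant lower tract replicate 1 or 2, mutant spermathecae replicate 1 or 2, wild-type lower tract replicate 2 or wild-type spermathecae replicate 2, with an adjusted p of 0.0701 to 0.218, and also with median centring, no filter, no variance trend, a pseudocount of 20, quantile normalization or the replicate block (adjusted p of 0.0615 to 0.0988).

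Several transcripts that rose in the mutant lower tract, such as CG3588 and Elo68alpha, were near background in the other groups. Mal-B1 and Cyp4d21 lay above the array medians in the wild-type lower tract. CG3588 read 1343 and 991 in the mutant lower tract, against 11.7 and 2.28 in the wild-type lower tract. In spermathecae it stayed near background, with 2.72 and 5.67 in the mutant, against 2.16 and 2.58 in wild type, and the difference of -6.52 (SE 0.66, adjusted p = 0.000756) was the largest below 0. The order depends on the pseudocount, since with none the difference was -7.07 for CG3588, -8.06 for Elo68alpha and -7.23 for St4. A second CG3588 probe set gave -3.82 (adjusted p = 0.00532). Elo68alpha, an elongase of fatty acid chains best known from the male ejaculatory bulb, read 358 and 289 in the mutant lower tract, against 2.31 and 1.74 in the wild-type lower tract, and 0.485 and 1.35 in mutant spermathecae, against 1.85 and 0.985 in wild-type spermathecae. It differed by -5.90 (SE 0.60, adjusted p = 0.000762). Mal-B1, a maltase, read 642 and 526 in the mutant lower tract, against 32.8 and 46.1 in the wild-type lower tract, and differed by -3.70 (SE 0.50, adjusted p = 0.00398). CG14419 read 624 and 616 in the mutant lower tract, against 0.572 and 19.6 in the wild-type lower tract, and differed by -5.41 (SE 0.96, adjusted p = 0.0153). CG14419 lost its call without mutant lower tract replicate 1 or 2 or mutant spermathecae replicate 1, with an adjusted p of 0.0712 to 0.0962, and also with no pseudocount (adjusted p = 0.165). Cyp4d21, a cytochrome P450 known from fat tissue of the male head, rose in both organs and further in the tract. It read 5626 and 5745 in the mutant lower tract, against 204 and 223 in the wild-type lower tract, and 15.1 and 12.8 in mutant spermathecae, against 1.36 and 5.05 in wild-type spermathecae, a difference of -3.35 (SE 0.37, adjusted p = 0.00133). The spermathecal signals were near background, and the difference was -2.33 with no pseudocount and -4.06 with a pseudocount of 20, without a call in the fit with no pseudocount (adjusted p = 0.161).

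Some blood cell genes rose in the mutant lower tract, and others fell. NimC1, a phagocytosis receptor of hemocytes, read 322 and 331 in the mutant lower tract, against 35.1 and 51.8 in the wild-type lower tract, and 15.5 and 30.3 in mutant spermathecae, against 12.3 and 16.1 in wild-type spermathecae. The scavenger receptor gene Sr-CI read 258 and 259 in the mutant lower tract, against 64.3 and 114 in the wild-type lower tract, and the prophenoloxidase gene PPO1, a melanization enzyme of crystal cells, 359 and 379 in the mutant lower tract, against 191 and 202 in the wild-type lower tract. Their differences were -2.31 (SE 0.48, adjusted p = 0.0328) for NimC1, -1.94 (SE 0.44, adjusted p = 0.0494) for Sr-CI and -1.38 (SE 0.25, adjusted p = 0.0177) for PPO1. Of all probe sets tested, 1.76% were called above 0 and 1.29% below 0. In the hemocyte list 0 of 25 probe sets were above 0 and 3 below, with a median of -0.38, and none of the 3 kept its call in every omission of an array. NimC1 lost its call without mutant lower tract replicate 1 or 2, mutant spermathecae replicate 1, wild-type lower tract replicate 1 or wild-type spermathecae replicate 2, with an adjusted p of 0.0586 to 0.167, and also with no filter, no pseudocount or no variance trend (adjusted p of 0.053 to 0.0799). Sr-CI lost its call without mutant lower tract replicate 1 or 2, mutant spermathecae replicate 1 or 2, wild-type lower tract replicate 1 or wild-type spermathecae replicate 1 or 2, with an adjusted p of 0.0658 to 0.219, and also with median centring, no filter, no pseudocount, no variance trend, quantile normalization or the replicate block (adjusted p of 0.0537 to 0.116). PPO1 lost its call without mutant lower tract replicate 1 or 2, mutant spermathecae replicate 1 or 2 or wild-type lower tract replicate 1, with an adjusted p of 0.0542 to 0.103. Summed hemocyte signal over the whole list of 30 probe sets was 18753 to 19829 in the mutant lower tract and 18823 to 20290 in the wild-type lower tract, ranges that overlap. The ferritin genes Fer1HCH and Fer2LCH had the brightest signals in it, with Fer1HCH at 5320 and 5353 in the mutant lower tract, against 5317 and 5633 in the wild-type lower tract. The mean log2 signal of the list, in which each probe set weighs the same, was 7.32 to 7.46 in the mutant lower tract and 7.07 to 7.19 in the wild-type lower tract, ranges that do not overlap. In the mutant effect in the lower tract alone, 4 of 25 tested probe sets of the list rose and 2 fell, against 2.47% and 3.33% of all tested. NimC2, also named after its values were seen, rose (2.28, adjusted p = 0.0455), and its interaction difference did not pass (-1.52, adjusted p = 0.444). Those that fell were NimB2 (-0.93, adjusted p = 0.0099) and NimC4 (-1.62, adjusted p = 0.035), named likewise. Their interaction differences did not pass (adjusted p = 0.329 and 0.131). The part of blood cells in these results was not tested.

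The family of odorant-binding proteins, small secreted carriers that occur in many tissues beside the antenna, had called members in several of the patterns above. Of 20 tested probe sets, 9 were called, 4 above 0 and 5 below, against 3.05% of all probe sets. Members other than Obp69a, Obp83cd, Obp57c and Obp83g were named after their values were seen. Obp57a, Obp57b and Obp57c, which neighbour one another, fell in mutant spermathecae, and Obp57c fell less in the lower tract too. Obp57c read 121 and 123 in mutant spermathecae, against 644 and 608 in wild-type spermathecae, and 2322 and 2458 in the mutant lower tract, against 3596 and 4249 in the wild-type lower tract, a difference of -1.61 (SE 0.20, adjusted p = 0.00257). Obp57a read 2982 and 3047 in mutant spermathecae, against 9388 and 8182 in wild-type spermathecae, while the tract had 8498 and 7836 in the mutant lower tract, against 9028 and 9659 in the wild-type lower tract. Obp57a and Obp57b differed by -1.34 and -1.46 (adjusted p = 0.00819 and 0.0284). Obp69a, Obp56e and Obp99c fell in the mutant lower tract. Obp56e read 37.2 and 39.2 in the mutant lower tract, against 443 and 493 in the wild-type lower tract, and differed by 3.10 (SE 0.61, adjusted p = 0.0258). For Obp99c the tract signals were 352 and 501 in the mutant, against 1846 and 1522 in wild type, and the difference 2.38 (SE 0.36, adjusted p = 0.00641). Obp18a also had a difference above 0, at 1.35 (SE 0.27, adjusted p = 0.0269), with no call in either organ alone.

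Obp83cd and Obp83g rose in the mutant lower tract. Obp83cd was bright in the spermathecae of both genotypes, which overlapped, with 1095 and 1483 in mutant spermathecae, against 1032 and 1233 in wild-type spermathecae. In the tract it read 291 and 416 in the mutant, against 18.3 and 21.2 in wild type, and it differed by -3.72 (SE 0.31, adjusted p = 0.000316). Obp83g read 496 and 504 in the mutant lower tract, against 4.96 and 3.86 in the wild-type lower tract, and 26.3 and 3.96 in mutant spermathecae, against 3.33 and 5.77 in wild-type spermathecae, a difference of -5.03 (SE 0.78, adjusted p = 0.00804). Obp83g lost its call without mutant lower tract replicate 1 (adjusted p = 0.0582) or mutant lower tract replicate 2 (adjusted p = 0.053). Obp8a fell in both organs, with effects of -2.94 (spermathecae) and -2.23 (lower tract), and its interaction did not pass (adjusted p = 0.306). Of the 9 called members, 4 kept their call in each omission of an array, namely Obp57c, Obp69a, Obp83cd and Obp99c. Obp57a kept it in 7 of the 8, and Obp57b, Obp56e and Obp18a in 3.

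**Figure D3:**
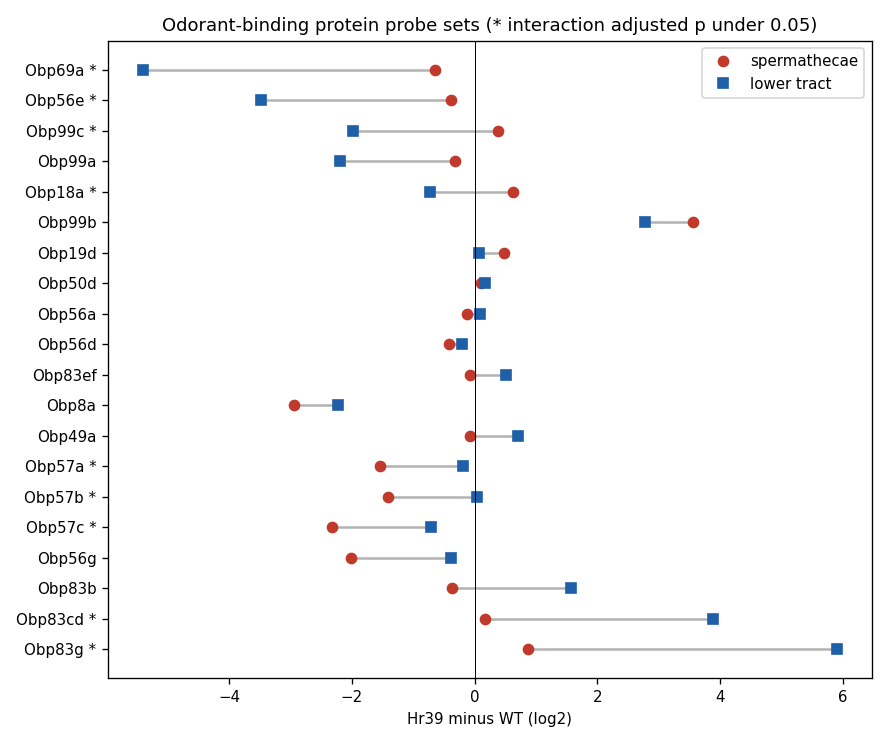
Effect of the mutation (log2 of Hr39 over wild type, x axis) in the spermathecae (red circles) and the lower tract (blue squares) for each of 20 tested odorant-binding protein probe sets, ordered by interaction difference, with a star at the 9 called. Obp69a, Obp56e and Obp99c fell in the lower tract, Obp57a, Obp57b and Obp57c fell in the spermathecae, and Obp83cd and Obp83g rose in the lower tract.

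In 19 probe sets the mutation had called effects of opposite sign in the organs. The smallest p among them was that of Elal, which read 967 and 845 in mutant spermathecae, against 152 and 163 in wild-type spermathecae, and 212 and 167 in the mutant lower tract, against 619 and 598 in the wild-type lower tract. Mutant spermathecae and the wild-type tract were high, and the other groups were low. The interaction difference of Elal was 4.16 (SE 0.24, adjusted p = 5.75e-05). CG13813 read 996 and 482 in mutant spermathecae, against 78.7 and 92.1 in wild-type spermathecae, and 14.3 and 13.2 in the mutant lower tract, against 73.4 and 57.9 in the wild-type lower tract, a difference of 4.93 (SE 0.46, adjusted p = 0.000441). Hex-C, a hexokinase known from fat body and gut, which starts the use of glucose, read 449 and 430.0 in mutant spermathecae, against 163 and 143 in wild-type spermathecae, and 102 and 149.9 in the mutant lower tract, against 281 and 366 in the wild-type lower tract. It differed by 2.85 (SE 0.31, adjusted p = 0.00118). The opposite order held for CG8925, which read 73.7 and 97.1 in mutant spermathecae, against 530.4 and 453 in wild-type spermathecae, and 400.3 and 409.5 in the mutant lower tract, against 207 and 229 in the wild-type lower tract. Its difference was -3.36 (SE 0.26, adjusted p = 0.000182). CG3348 read 109 and 124 in mutant spermathecae, against 818 and 528 in wild-type spermathecae, and 316 and 428 in the mutant lower tract, against 168 and 191 in the wild-type lower tract, with a difference of -3.48 (SE 0.33, adjusted p = 0.000534). CG13285 had a small fall in spermathecae, 10.8 and 18.4 in mutant spermathecae, against 39.7 and 46.9 in wild-type spermathecae, and a large rise in the tract, 229.8 and 210.4 in the mutant lower tract, against 14.4 and 8.64 in the wild-type lower tract. It differed by -5.25 (SE 0.47, adjusted p = 0.000398). In each of these 6 genes the genotypes did not overlap in either organ. The 6 were picked by smallest interaction p among members with called effects in both organs. That choice favours arrays that do not overlap, so this describes the members and is no further support.

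The same contrast can be read as the difference between the organs, spermathecae over lower tract, in the mutant set against that in wild type. Among the 178 probe sets above 0, 48 were called higher in the spermathecae in the mutant and lower there in wild type, and 36 had a called organ difference in the mutant alone. For 45 the organ difference was called in wild type alone. Among the 130 below 0, 15 were lower in the spermathecae in the mutant and higher there in wild type, 38 were called in the mutant alone and 20 in wild type alone. These counts describe the members and share their arrays with the interaction. Of all probe sets tested, 46.2% had a called organ difference in the mutant and 43.7% in wild type. Obp69a had an organ difference of 1.35 in the mutant and -3.42 in wild type. CG32444 had 1.80 in the mutant and -1.43 in wild type, and Elal 2.24 in the mutant and -1.92 in wild type. The wild type had the higher organ difference in Jhbp14, with -2.50 in the mutant and 0.55 in wild type. So it was in CG8925 (-2.21 in the mutant and 1.16 in wild type) and in drl (-0.80 in the mutant and 3.48 in wild type). Each of these 6 genes had called organ differences of opposite sign in the genotypes. GlcAT-P had an organ difference of 0.58 in the mutant, which did not pass, and 5.66 in wild type. In Cad87A it was larger in the mutant, with 5.17 in the mutant and 1.61 in wild type.

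**Figure D4:**
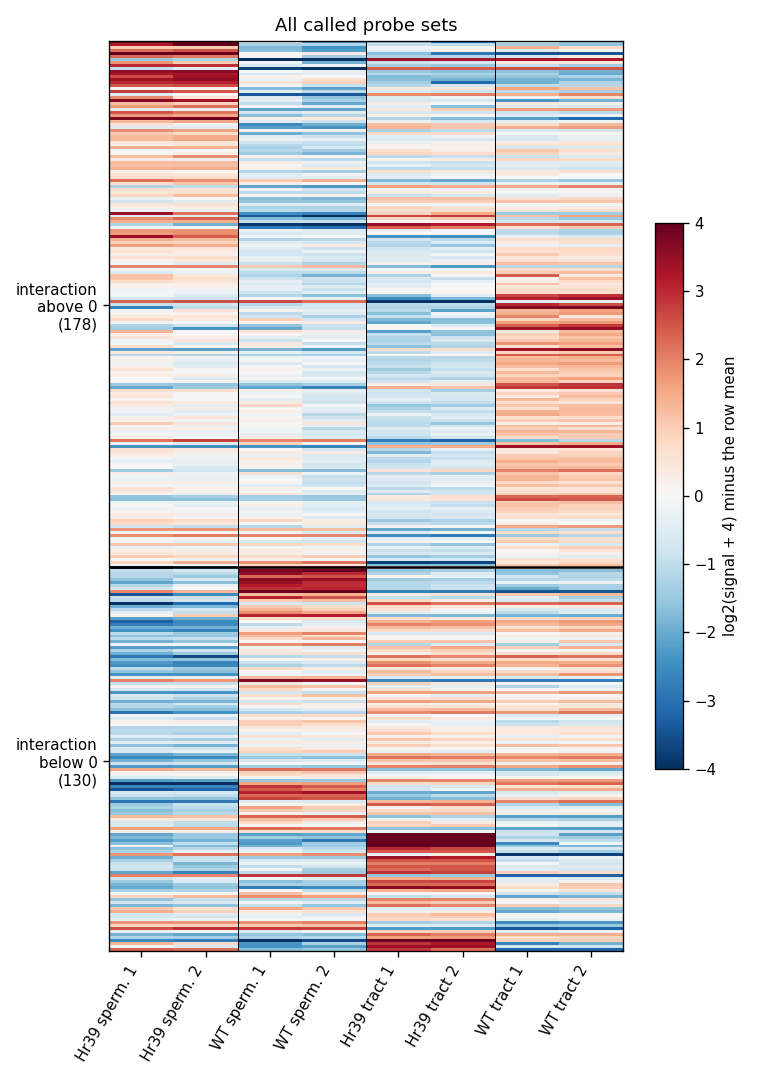
All 308 called probe sets (rows) on the 8 arrays (columns), as log2(signal + 4) minus the row's mean over the arrays; red is above and blue below that mean. Rows are grouped by the sign of the interaction difference (178 above 0, 130 below 0); blocks are high in mutant spermathecae, high in the wild-type lower tract, high in wild-type spermathecae or high in the mutant lower tract.

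The 40 gene lists put these members in proportion. Calls were made in 23 lists. Of all probe sets tested, 1.76% were called above 0 and 1.29% below 0, and lists near these shares do not stand out. Cytochromes P450 had 4 of 64 above 0 and 3 below 0 (median 0.02), among them Cyp6w1 at 1.94 (SE 0.27, adjusted p = 0.0045), named after its values were seen. Glutathione S-transferases had 1 of 33 above 0 and 1 below 0 (median 0.05), the one above 0 being GstS1 at 1.46 (adjusted p = 0.00641). Structural cuticle proteins had 2 of 44 above 0 and 4 below 0 (median -0.15), and 2 of the 6, Cpr62Bb and Cpr66Cb, kept their call in every omission. Genes of spermathecal secretory cells had 1 of 12 above 0 and 3 below 0 (median 0.62), namely Obp56e above and NLaz, Obp83cd and Cyp4d21 below. Cyp4d21 was bright in the mutant tract and near background in spermathecae. Obp56e was near background in spermathecae too, with 12.7 and 4.43 in the mutant, against 6.52 and 18.7 in wild type. The levels of both genes go against the name of that list. Lipocalins had 0 of 4 above 0 and 1 below 0 (median -0.60), elongases and desaturases 0 of 21 above 0 and 1 below 0 (median 0.23), and gut and Malpighian tubule genes 0 of 11 above 0 and 1 below 0 (median -0.66), each with 1 called member described above. Serpins had 1 of 17 above 0 and 1 below 0 (median 0.21).

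In 10 further lists no called member kept its call in every omission of an array. Antimicrobial peptides had 2 of 22 above 0 and 0 below 0 (median 0.81), immune recognition genes 1 of 27 above 0 and 2 below 0 (median 0.07), basement membrane genes 0 of 24 above 0 and 2 below 0 (median -0.25), and muscle genes 2 of 61 above 0 and 0 below 0 (median -0.07). Chitin metabolism had 1 of 27 above 0 and 1 below 0 (median 0.17), carbonic anhydrases 2 of 7 above 0 and 0 below 0 (median -0.27), carboxylesterases 1 of 10 above 0 and 1 below 0 (median 0.30), and antioxidant enzymes 1 of 23 above 0 and 0 below 0 (median -0.09). Serine proteases had 0 of 18 above 0 and 1 below 0 (median 0.17), and the beat and side family of immunoglobulin proteins 0 of 12 above 0 and 1 below 0 (median -0.33). Over all probe sets tested the median was 0.04, with 1.76% called above 0 and 1.29% below 0. Several lists have few members, so that a single call makes a large share.

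Among the members of these lists, the defence genes BomS6 (a bomanin peptide) and TotC (a stress-induced Turandot peptide) varied between replicates. BomS6 read 81.2 and 124 in the mutant lower tract, against 508 and 944 in the wild-type lower tract, and 995 and 378 in mutant spermathecae, against 597 and 441 in wild-type spermathecae, a difference of 2.99 (SE 0.61, adjusted p = 0.03). TotC read 1233 and 501 in mutant spermathecae, against 225 and 105 in wild-type spermathecae, and differed by 2.85 (SE 0.65, adjusted p = 0.0474). BomS6 lost its call without mutant lower tract replicate 1 or 2, mutant spermathecae replicate 1, wild-type lower tract replicate 2 or wild-type spermathecae replicate 2, with an adjusted p of 0.0691 to 0.155, and also with no filter, no variance trend or the robust variance (adjusted p of 0.0529 to 0.099). TotC lost its call without mutant lower tract replicate 1 or 2, mutant spermathecae replicate 1, wild-type lower tract replicate 1 or 2 or wild-type spermathecae replicate 2, with an adjusted p of 0.0565 to 0.205, and also with median centring, no filter, no pseudocount, no variance trend, quantile normalization, the replicate block or the robust variance (adjusted p of 0.059 to 0.134). PGRP-SC2, an amidase that cuts peptidoglycan, read 109 and 76.2 in the mutant lower tract, against 224 and 342 in the wild-type lower tract, and differed by 2.03 (SE 0.36, adjusted p = 0.0153). PGRP-SC2 lost its call without mutant lower tract replicate 2 (adjusted p = 0.0787) or mutant spermathecae replicate 2 (adjusted p = 0.0705), and also with no variance trend (adjusted p = 0.0686). The carbonic anhydrase gene CAH2, whose product interconverts carbon dioxide and bicarbonate, read 1029 and 975 in the mutant lower tract, against 2709 and 3125 in the wild-type lower tract, and differed by 1.49 (SE 0.30, adjusted p = 0.0277). CAH7 rose in mutant spermathecae instead, with 187 and 203 in mutant spermathecae, against 81.1 and 71.8 in wild-type spermathecae, and differed by 1.73 (SE 0.32, adjusted p = 0.0175). CAH2 lost its call without mutant lower tract replicate 1 or 2, mutant spermathecae replicate 1 or 2 or wild-type lower tract replicate 1 or 2, with an adjusted p of 0.0583 to 0.123, and also with no variance trend (adjusted p = 0.099). CAH7 lost its call without mutant lower tract replicate 1 or mutant spermathecae replicate 1 or 2, with an adjusted p of 0.0674 to 0.101.

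The chitinase gene Cht10 read 82.1 and 82.3 in the mutant lower tract, against 16.6 and 8.66 in the wild-type lower tract, and differed by -3.49 (SE 0.63, adjusted p = 0.0172), or by -4.59 with no pseudocount and -2.10 with a pseudocount of 20. Idgf5, a chitinase-like growth factor, fell in the lower tract and differed by 1.72 (SE 0.36, adjusted p = 0.0345). Cht10 lost its call without mutant lower tract replicate 1 or 2 or mutant spermathecae replicate 2, with an adjusted p of 0.0536 to 0.101, and also with no filter or no pseudocount (adjusted p of 0.051 to 0.0548). Idgf5 lost its call without mutant lower tract replicate 1 or 2, mutant spermathecae replicate 1 or 2, wild-type lower tract replicate 1 or 2 or wild-type spermathecae replicate 2, with an adjusted p of 0.0539 to 0.16, and also with no filter or the replicate block (adjusted p of 0.057 to 0.0922). The cuticle gene TwdlT read 261 and 203 in the mutant lower tract, against 702 and 715 in the wild-type lower tract, and differed by 2.25 (SE 0.40, adjusted p = 0.0159). TwdlT lost its call without mutant lower tract replicate 1 or 2, mutant spermathecae replicate 2 or wild-type lower tract replicate 1, with an adjusted p of 0.0572 to 0.095. Of the carboxylesterases, alpha-Est5 read 293 and 234 in mutant spermathecae, against 14.6 and 5.47 in wild-type spermathecae, and differed by 2.84 (SE 0.61, adjusted p = 0.036), or by 1.71 with no pseudocount and 2.71 with a pseudocount of 20. Est-Q fell in mutant spermathecae, with 67.9 and 48.9 in mutant spermathecae, against 139 and 138 in wild-type spermathecae, and differed by -1.54 (SE 0.30, adjusted p = 0.0226). alpha-Est5 lost its call without mutant lower tract replicate 1 or 2, mutant spermathecae replicate 1 or 2, wild-type lower tract replicate 1 or 2 or wild-type spermathecae replicate 2, with an adjusted p of 0.0542 to 0.167, and also with no filter, no pseudocount, the replicate block or the stricter filter (adjusted p of 0.052 to 0.567). Est-Q lost its call without mutant lower tract replicate 1 or 2, mutant spermathecae replicate 2 or wild-type lower tract replicate 1, with an adjusted p of 0.0605 to 0.121. Duox, an oxidase that makes hydrogen peroxide, differed by 1.26 (SE 0.29, adjusted p = 0.0494) with a fall in the lower tract. Duox lost its call without mutant lower tract replicate 1 or 2, mutant spermathecae replicate 1 or 2, wild-type lower tract replicate 1 or wild-type spermathecae replicate 1 or 2, with an adjusted p of 0.0741 to 0.206, and also with no filter, no pseudocount or no variance trend (adjusted p of 0.0565 to 0.093).

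The gene beat-VII, of a family of immunoglobulin proteins of nerve guidance, was high in the mutant in both organs. It read 350.3 and 306 in mutant spermathecae, against 16.1 and 18.9 in wild-type spermathecae. In the lower tract beat-VII read 476 and 311 in the mutant, against 3.27 and 3.39 in wild type. Mutant arrays were far above wild-type arrays in each organ. The interaction difference was -1.78 (SE 0.39, adjusted p = 0.0395) on 1629697_a_at, but 0.26 (adjusted p = 0.884) on its other probe set, which was high in the mutant in both organs as well. beat-VII lost its call without mutant lower tract replicate 1 or 2, mutant spermathecae replicate 1 or 2, wild-type lower tract replicate 1 or 2 or wild-type spermathecae replicate 2, with an adjusted p of 0.0554 to 0.25, and also with no filter, a pseudocount of 20 or the replicate block (adjusted p of 0.0564 to 0.181), and its difference was -2.62 with no pseudocount and -0.91 with a pseudocount of 20.

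**Figure D5:**
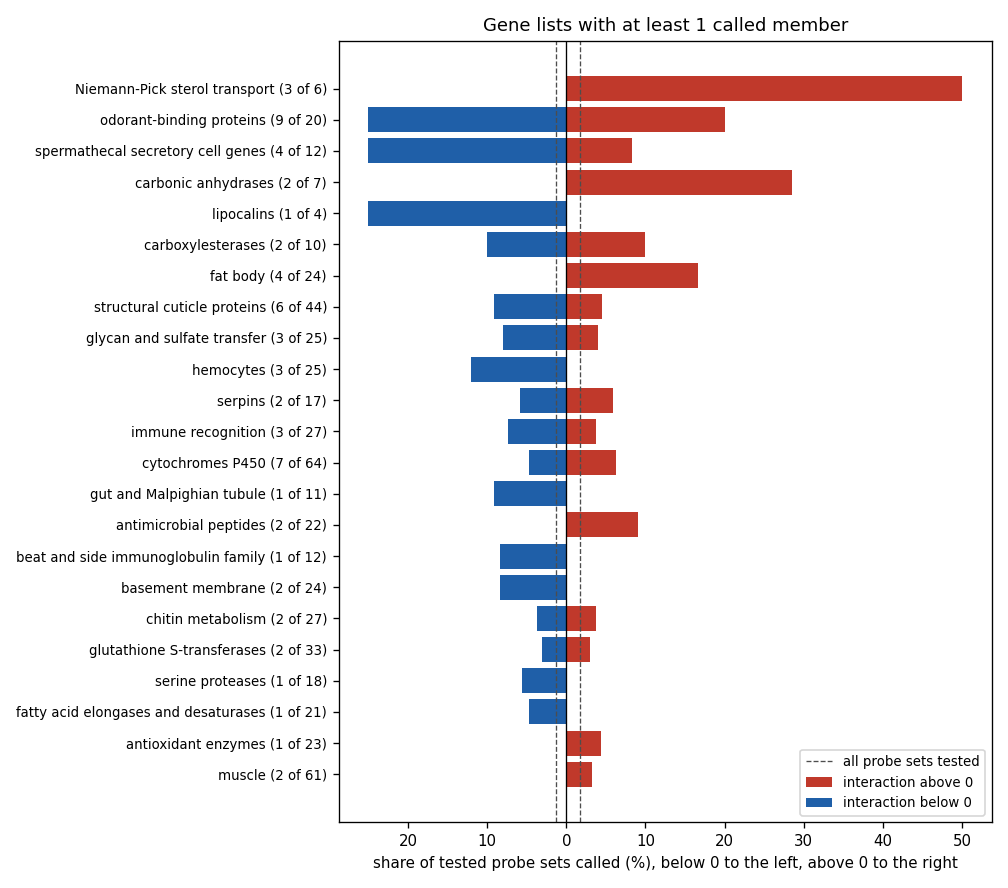
Share of each list's tested probe sets (%) with a called interaction difference above 0 (red, to the right) and below 0 (blue, to the left), for the 23 lists with at least 1 call, with called and tested counts beside each name. Dashed lines mark the shares over all probe sets tested, 1.76% above 0 and 1.29% below.

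In the other 17 lists limma called 0 probe sets. Over all probe sets tested, 1414 of 10113 had an unadjusted p below 0.05 in limma. In these lists the number was 0 of 17 for nuclear receptors, 2 of 10 for ecdysteroid enzymes and response genes, and 3 of 22 for patterning factors of the tract. It was 0 of 47 for the secretory pathway of the endoplasmic reticulum, 1 of 68 for oxidative phosphorylation, 3 of 42 for cytosolic and 5 of 71 for mitochondrial ribosomal proteins. The vacuolar proton pump had 10 of 22 (median -0.47), octopamine and peptide receptors 6 of 12 (median 0.63), neurons 2 of 22, heat shock and chaperone genes 2 of 17, and UDP-glycosyltransferases 3 of 18. Germline genes had 2 of 21, eggshell genes 1 of 7, male accessory gland genes 1 of 3, and sperm and testis genes 0 of 10. Spermathecal proteases had 2 of 11. Their median interaction was -1.50, with median effects of 0.01 (spermathecae) and 1.51 (lower tract), and the smallest adjusted p was 0.0524. In the tract these proteases varied between replicates, with sums of 10917 and 3612 in the mutant and 5231 and 2582 in wild type. The germline list had a median of 0.54, and its signal in the wild-type tract was high on replicate 1 alone, as given above.

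Called probe sets came from every chromosome arm. The share of tested probe sets called was 4.02% on 2L, where Hr39 lies, 3.53% on 2R, 2.84% on 3L, 3.43% on 3R and 2.77% on X, and 3 of 61 on the fourth chromosome. No test was made between arms.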

How the data were processed

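RNA of 2 organs from 2 genotypes was measured on 8 Affymetrix arrays. The authors deposited 1 linear intensity per probe set and array, made with MAS5 (version not given) per the submitters' processing notes. The mean of each array without its lowest and highest 2% was 150.0, so the arrays had been scaled to a common mean before deposit. Depth does not apply to arrays, and their number limits the precision.

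From these values log2(signal + 4) was computed, 183 control probe sets were left out, and limma 3.58.1 in R 4.3.3 (lmFit, eBayes with a variance trend) was fitted with 1 mean per group, 4 residual and 5.75 prior degrees of freedom. Tests are two-sided, with Benjamini-Hochberg adjustment over 10113 probe sets. GEO's platform annotation gave 1 symbol to 13647 probe sets, several to 402 and none to 4720; current names were checked for 13544, and 0 changed. The fit was run on simulated arrays with known differences and independent normal noise, which checks the code alone. That run does not show how the fit behaves on these arrays. The members, the 40 gene lists and the naming rule were chosen with earlier results of these data known. The rule names the 12 largest differences in each direction whose sign held for all 16 choices of 1 array per group, Hr39 and ftz-f1, up to 3 called members per list, and the 6 or 8 smallest p of set patterns. No sequences were used.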

Additional observations from a re-analysis of the deposited data

Results flagged for a closer look

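The effect of the mutation differed between the organs, by the test of the difference itself, for 178 probe sets above 0 and 130 below 0. Among the named genes with called effects of opposite sign in the organs, the interaction differences were 4.16 for Elal, 4.93 for CG13813 and 2.85 for Hex-C, which rose in mutant spermathecae and fell in the mutant lower tract. They were -3.36 for CG8925, -5.25 for CG13285 and -3.48 for CG3348, which did the reverse. With 2 arrays per group no single array could be tested as standing apart from its group.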

How the results depend on the processing

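Under the 19 alternatives no called difference of a named gene changed its sign. Only the changes of normalization, centring or pseudocount could have changed it. The filters, the variance settings and the replicate block leave the difference itself as it is. Leaving arrays out averages over some of the 16 choices of 1 array per group, and called probe sets had kept their sign in all 16. The counts above and below 0 were 178 and 130. With no filter on low signals they were 114 and 101, with more probe sets tested. Leaving out each array in turn gave 66 to 263 above 0 and 50 to 177 below 0. The other settings gave 119 to 219 above and 109 to 171 below. The members turned over more than the counts show: 228 were called with no variance trend, 178 of them among the 308, and 14 of the 70 called genes named by rule lost their call there. With no pseudocount and with no filter 12 of the 70 did so in each, and 255 and 212 of the 308 were shared. Replicate numbers did not pair the arrays, since deviations of same-numbered arrays correlated at -0.03 to 0.03; with the replicate number as a block 294 probe sets were called (165 above, 129 below), 272 of them shared. The differences that changed sign were uncalled, and the cause was not tested. Hr39 1631402_s_at had -0.0643 with quantile normalization, -0.0609 with a pseudocount of 20 and -0.0456 to 0.106 over the omissions. Hr39 1628556_s_at had 0.000693 with no pseudocount and -0.298 to 0.295 over the omissions. Hr39 1632845_at had -0.0129 with a pseudocount of 20. For ftz-f1 the omissions gave -0.326 to 0.293 on 1624520_a_at and -0.952 to 0.442 on 1640821_at, which had 0.0934 without both arrays that stood apart, a setting chosen after the data were seen, as was leaving out probe sets over 10000. Signals near background and 2 arrays per group limit the precision.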
